A study of Mus musculus with 9 samples.

Results

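The immediate early genes described here are Fos, Fosb, Junb, Atf3, Egr1, Egr2, Nr4a1, Npas4, Arc and Ier2, chosen by name. All 10 were found among the 34714 gene symbols of the deposited table of counts, and all 10 had enough counts to be among the 18644 genes tested. The libraries are poly(A) RNA of mouse cortex in 3 groups of 3. They came from naive mice, from mice in which experimental autoimmune encephalomyelitis was present (EAE, a model of multiple sclerosis in which the immune system attacks brain and spinal cord), and from mice with EAE given Au18(L-NIBC)14, a gold nanocluster whose target is named in the series title as the oligomerisation of the inflammasome adaptor ASC. The sources used here do not give strain, age, the way EAE was induced, dose, schedule, vehicle or day of collection. Labels number the brains from 1 to 3 in each group, and where nothing else ties a library to its own animal the p-values measure only the spread between these samples.

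Immediate early genes are transcribed within minutes of a stimulus, without the need for new protein. In neurons the stimulus is mainly synaptic activity and calcium entry, which act through CREB at cAMP response elements and through serum response factor at CArG boxes, and most of the transcripts are short-lived. In cortex their levels thus follow recent experience, handling, anaesthesia and seizures, and glia and vessels also use several of them in response to injury and cytokines.

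Total counts ranged from 26972179 to 45243553 per library. The excitatory neuron gene Slc17a7 was at 1152 to 1439 CPM (counts scaled to the size of the library) and the cortical gene Tbr1 at 95.8 to 156 CPM in the 9 libraries. Other markers varied between libraries of a group. The 7 striatal markers summed to 1620, 549 and 218 CPM in naive replicates 1 to 3, to 987, 1393 and 236 CPM in the EAE replicates and to 354, 1078 and 342 CPM in the treated ones. In bulk tissue fewer cells of a type and less RNA per cell cannot be told apart.

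The stretches below are the 250 bases upstream of a listed start of 4 members. They are from RefSeq on GRCm38.p6, written 5′ to 3′ on the strand of the gene. Capitals mark the core of the cAMP response element, TGACG or its reverse complement CGTCA, and CArG boxes.
Fos, chr12:85473640-85473889, plus strand: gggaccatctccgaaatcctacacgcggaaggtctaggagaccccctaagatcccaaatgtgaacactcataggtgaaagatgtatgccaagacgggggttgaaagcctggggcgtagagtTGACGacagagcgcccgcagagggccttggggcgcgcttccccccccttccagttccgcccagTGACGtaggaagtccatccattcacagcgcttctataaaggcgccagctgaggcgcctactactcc
Junb, chr8:84978749-84978998, minus strand: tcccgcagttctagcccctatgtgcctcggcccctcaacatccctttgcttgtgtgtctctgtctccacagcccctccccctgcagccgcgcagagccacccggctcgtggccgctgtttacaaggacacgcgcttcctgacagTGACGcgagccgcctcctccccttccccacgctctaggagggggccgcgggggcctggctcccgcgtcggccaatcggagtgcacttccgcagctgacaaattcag
Egr2, chr10:67537619-67537868, plus strand: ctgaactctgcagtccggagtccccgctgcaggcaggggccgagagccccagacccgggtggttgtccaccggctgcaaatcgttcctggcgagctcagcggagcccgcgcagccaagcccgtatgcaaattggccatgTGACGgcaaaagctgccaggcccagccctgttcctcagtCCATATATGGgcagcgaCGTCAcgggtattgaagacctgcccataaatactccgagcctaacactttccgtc
Nr4a1, chr15:101266596-101266845, plus strand: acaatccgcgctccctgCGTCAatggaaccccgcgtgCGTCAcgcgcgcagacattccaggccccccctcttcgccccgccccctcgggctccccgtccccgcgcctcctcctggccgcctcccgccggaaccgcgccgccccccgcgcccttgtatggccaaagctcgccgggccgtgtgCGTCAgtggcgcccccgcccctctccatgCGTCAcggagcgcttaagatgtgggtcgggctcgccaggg

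Entries were found for 7 members, namely these 4 with Fosb, Atf3 and Npas4. The core TGACG, searched on both strands, was in the upstream 250 bases of 7 of 7, against 19.8% of the 27025 genes with an entry. A gene counted where any of its listed starts had the letters. Egr2 had 5 listed starts, 3 of them with the core, and the stretch printed is 1 of those 3, while the other 6 members had 1 start each. Nr4a1 had 4 copies, the nearest 40 bases before the start. Fos had 2, at 66 and 129 bases before it. The full palindrome TGACGTCA, which contains the core, was in 0 of the 7 and in 1.77% of all genes. A CArG box was found in Egr2 alone of the 7, and in 1.62% of all genes. The search ended 250 bases upstream, so that a box further away would be missed and its absence from a gene is not shown. The AP-1 element TGANTCA, the site of FOS and JUN dimers, was in 0 of 7 and in 7.82% of all genes. Among 37 other activity-regulated genes of a wider list with an entry, 20 had the core. A match describes letters in a window and does not show that a factor binds there. Any link between these letters and the levels of the members was not tested.

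The immediate early genes differed widely between libraries of 1 group. EAE replicate 3 had the highest level of the 9 libraries for 8 of 10 members, whereas EAE replicates 1 and 2 were among the 3 lowest for 8 members each. Treated replicate 1 was the lowest of all for 6 members and among the 3 lowest for 9. No member passed the test in any of the 3 comparisons. The libraries numbered 3 were the highest of their group for 10 of 10 members in EAE, 10 of 10 in treated EAE and 7 of 10 in naive mice.

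**Figure D1:**
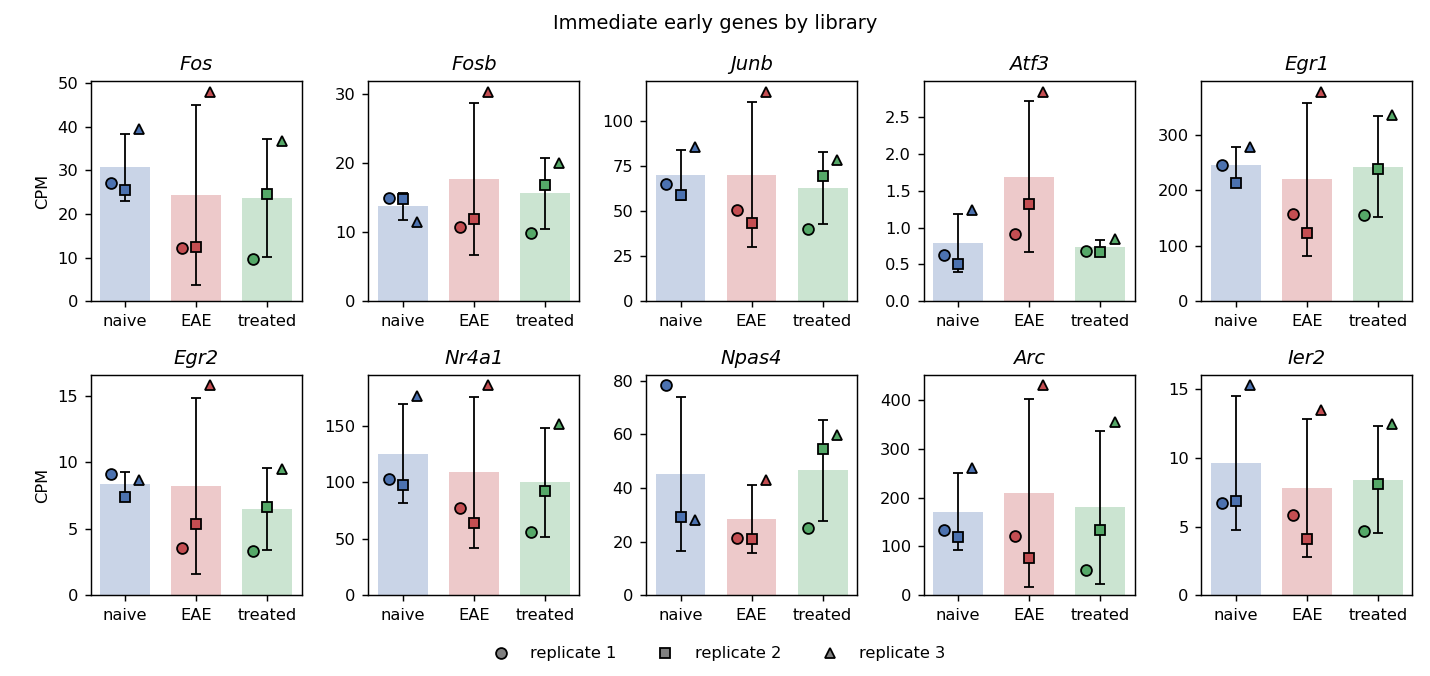
CPM of the 10 members by group. Bars are means with SD (n = 3), and symbols are the libraries by replicate number. The triangle of EAE (replicate 3) stands well above the other EAE libraries in most panels, as in Arc with 430 against 121 and 75.5 CPM.

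Fos (chromosome 12, 85473890 to 85477273, mm10) encodes the leucine zipper partner of JUN proteins in the AP-1 transcription factor. It was at 27.2, 25.5 and 39.6 CPM in the naive libraries, at 12.3, 12.4 and 48.1 CPM in EAE and at 9.77, 24.7 and 36.7 CPM in treated EAE. The EAE group thus held the highest Fos value of the series beside 2 of the 3 lowest, and all groups overlapped. The log2 fold change was -0.34 (SE 0.63) for EAE against naive and -0.04 (SE 0.63) for treated against untreated EAE, with edgeR adjusted p of 0.847 and 0.988. Its 95% interval in the former ran from -1.79 to 1.11, which takes in a 2-fold fall and a 2-fold rise.

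Fosb, whose stable splice form builds up with repeated stimulation, varied less in naive cortex, at 14.9, 14.7 and 11.5 CPM. It was at 10.7, 11.97 and 30.3 CPM in EAE and at 9.91, 16.8 and 20.1 CPM in treated EAE. Naive replicate 3 was the lowest naive library here, unlike for Fos, Junb, Egr1, Nr4a1, Arc, Ier2 and Atf3, where it was the highest. The splice forms cannot be separated in gene counts.

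Junb, a JUN family partner of FOS proteins, was at 65.1, 59.2 and 85.9 CPM in naive, 51.0, 43.8 and 116 CPM in EAE and 40.3, 69.6 and 78.4 CPM in treated EAE. EAE replicate 3 was again the highest of all, and the means of naive (70.1 ± 14.1 CPM) and EAE (70.4 ± 40.1 CPM, SD, n = 3 each) were almost the same. Exons of Junb overlap those of Prdx2 on the opposite strand in GENCODE M21, and the sources used here do not give the strand setting of the counting, so the reads of those bases could come from either gene.

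Atf3, a stress-inducible leucine zipper factor that injured neurons and macrophages switch on, departed from the others. Its levels were 0.626, 0.513 and 1.24 CPM in naive, 0.909, 1.33 and 2.85 CPM in EAE and 0.684, 0.664 and 0.845 CPM in treated EAE. These rest on 14 to 82 counts per library. All 3 EAE libraries were above all 3 treated ones, while naive replicate 3 overlapped EAE. The log2 fold change was 1.10 (SE 0.46, edgeR adjusted p = 0.279) for EAE against naive and -1.21 (SE 0.46, edgeR adjusted p = 0.26) for treated against untreated EAE, so that neither passed over all genes. Of the 10 members, Atf3 alone had an unadjusted p under 0.05, in both of these comparisons, which share the EAE libraries. Summed monocyte markers (Ly6c2, Ccr2, Lyz2 and Ms4a6c) were at 12.8, 46.8 and 105 CPM in EAE replicates 1 to 3, against 6.12 to 6.79 CPM in naive mice and 16.1, 13.8 and 6.43 CPM in treated ones. Most of the EAE sum was Lyz2 (9.18, 37.8 and 95.5 CPM), and Ms4a6c was highest in EAE replicate 2 (1.88, 4.82 and 3.16 CPM). Treated replicate 3, the highest of its group for Atf3 CPM, was the lowest for the summed markers. That Atf3 order rests on 28, 28 and 23 counts in treated replicates 1 to 3, too few to rank these libraries. Of these 4 markers Ms4a6c passed the edgeR test in EAE against naive, and their part in the Atf3 values was not tested.

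Egr1 is the zinc finger factor most used as a marker of cortical activity and had, with Arc, the highest level per length of the members. It was at 246, 214 and 278 CPM in naive, 157, 124 and 378 CPM in EAE and 155, 238 and 336 CPM in treated EAE. The naive values lay close together (CV 13%), and EAE replicates 1 and 2 lay below all of them while replicate 3 lay above. Egr2, a relative with roles in neurons, lymphocytes and myelinating cells, split in the same way, with 9.12, 7.37 and 8.65 CPM in naive, 3.57, 5.34 and 15.8 CPM in EAE and 3.35, 6.64 and 9.48 CPM in treated EAE. Its naive spread (CV 10.8%) was the smallest of any member in any group, and its EAE spread (CV 80.3%) among the largest.

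Nr4a1, an orphan nuclear receptor also known as Nur77, was at 102, 97.2 and 176 CPM in naive, 76.8, 63.5 and 186 CPM in EAE and 55.8, 92.3 and 151 CPM in treated EAE. Ier2, a nuclear protein of less defined function, followed it closely, with 6.71, 6.89 and 15.3 CPM in naive, 5.87, 4.08 and 13.5 CPM in EAE and 4.66, 8.11 and 12.5 CPM in treated EAE. Both were high in the library numbered 3 of each group. The ratio of Nr4a1 to Ier2 CPM stayed between 11.4 and 15.6 over the 9 libraries, a range of 1.37-fold, although Nr4a1 itself ranged over 3.33-fold and Ier2 over 3.75-fold. It was the steadiest of the 45 ratios between members, followed by Junb to Egr1 (1.51-fold).

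Arc, a capsid-like protein that removes AMPA receptors from synapses and whose RNA travels to active dendrites, had the widest range of the members, 8.34-fold. It was at 133, 119 and 261 CPM in naive, 121, 75.5 and 430 CPM in EAE and 51.6, 134 and 354 CPM in treated EAE. EAE replicate 3 was at 4.38 times the mean of EAE replicates 1 and 2, and treated replicate 3 at 6.87 times treated replicate 1. The 95% interval of its log2 fold change in EAE against naive, -1.59 to 2.17, was the widest of the 10.

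Npas4, a neuron-restricted factor induced by calcium entry and hardly by growth factors, followed another order. It was at 78.4, 29.1 and 28.0 CPM in naive, 21.3, 21.1 and 43.1 CPM in EAE and 25.1, 54.7 and 59.96 CPM in treated EAE. The highest library was thus naive replicate 1, which lay near the middle of the 9 for Fos and Arc, and naive replicate 3, high in Arc, was the lowest naive library. In EAE against naive its log2 fold change was the lowest of the members at -0.67 (SE 0.52, edgeR adjusted p = 0.584), and that of 0.71 (SE 0.52, edgeR adjusted p = 0.578) the highest in treated against untreated EAE. Ratios with Npas4 or Atf3 were the least steady, up to 8.28-fold for Atf3 to Npas4.

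**Figure D2:**
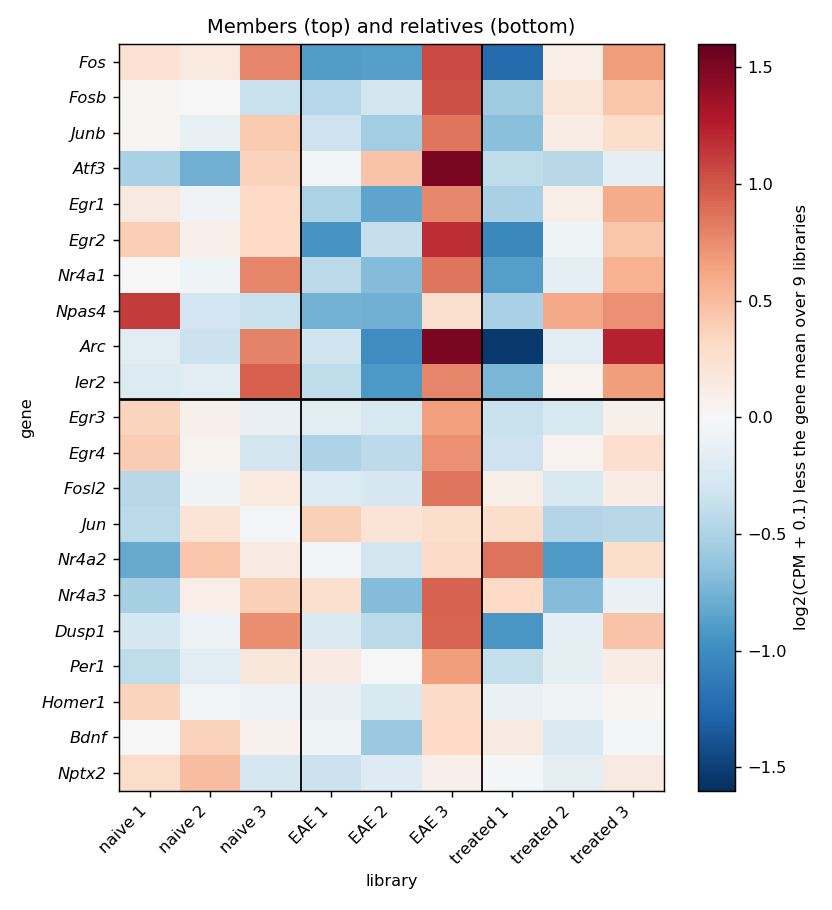
Level of each gene, as log2(CPM + 0.1) less the mean of that gene over the 9 libraries, for the 10 members above the horizontal line and 11 relatives below it. The column of EAE 3 is red for 10 of 10 members, treated 1 is blue for all of them, and Npas4 is darkest in naive 1.

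Per length of exon, which allows genes to be compared, the mean levels in naive cortex were 56.0 ± 25.7 for Arc, 54.8 ± 7.14 for Egr1, 35.7 ± 12.5 for Nr4a1 and 30.5 ± 6.10 for Junb, in CPM per kilobase (SD, n = 3). Fos (13.1 ± 3.26), Npas4 (10.9 ± 6.96) and Ier2 (6.33 ± 3.22) came next. Egr2 (2.47 ± 0.267), Fosb (2.20 ± 0.309) and Atf3 (0.368 ± 0.182) were lowest. Arc and Egr1, Nr4a1 and Junb, Fos and Npas4, Npas4 and Ier2, and Egr2 and Fosb differed by less than their spread. The same 4 genes led in EAE and in treated EAE.

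EAE was first set against naive cortex, for the effect of disease. No member passed by the edgeR quasi-likelihood test, in which 0.987% of the 18644 tested genes were called, nor by DESeq2. At an unadjusted p under 0.05 there was 1 of 10 members, Atf3, against 16.4% of all tested genes. In 0 of 10 members did the groups not overlap, against 24.0% of all tested genes. Log2 fold changes were above 0 for 4 members and below 0 for 6, with a median of -0.0961 beside -0.00514 over all tested genes. The balance of directions depended on single libraries. Without EAE replicate 3, 9 of 10 members were below naive, with a median of -0.82, and the smallest edgeR adjusted p was 0.268. Without EAE replicate 2, 8 of 10 were above naive, with a median of 0.16. Without EAE replicate 1 or naive replicate 3, 6 of 10 were above, with medians of 0.114 and 0.154. The median stayed below 0 without naive replicate 1 (-0.026) or naive replicate 2 (-0.184).

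Treated was then set against untreated EAE, for the effect of the nanocluster during disease. No member passed by edgeR, where 0.220% of tested genes were called, nor by DESeq2. At an unadjusted p under 0.05 there was again Atf3 alone, against 15.1% of tested genes, and Atf3 alone had groups that did not overlap, against 19.2%. Of the members 3 were above 0 and 7 below, with a median of -0.146 beside 0.00289 over all tested genes. Without EAE replicate 3, 9 of 10 were above 0 with a median of 0.63, and without treated replicate 1, 8 of 10 were, with a median of 0.18. No adjusted p was under 0.05 in either case.

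Treated EAE against naive called no gene at all by edgeR (0% of tested genes), with 318 genes at an unadjusted p under 0.05 and 3 called by DESeq2. Of the 10 members, 0 had an unadjusted p under 0.05 (1.71% of tested genes) and 0 had groups that did not overlap (6.25%). Log2 fold changes ran from -0.38 for Fos to 0.18 for Fosb. The 95% intervals were wide, from -1.83 to 1.07 for Fos and from -1.002 to 0.97 for Egr1.

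**Figure D3:**
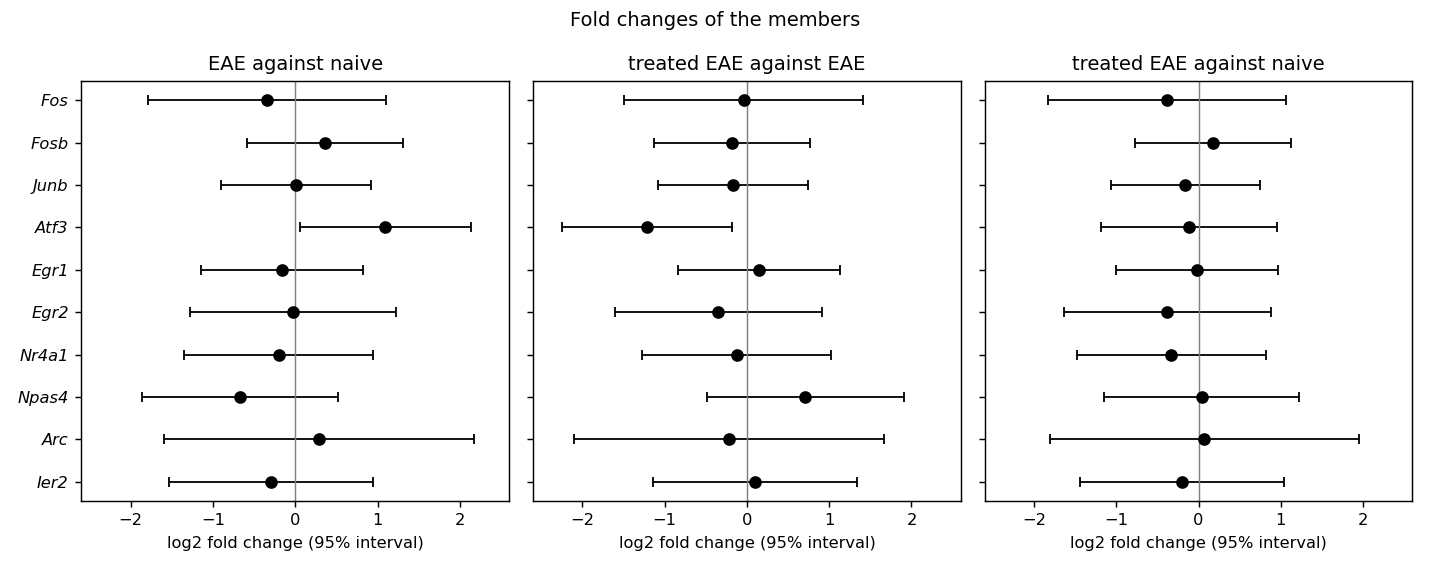
Log2 fold change of each member in the 3 comparisons (points) with 95% intervals from the edgeR fit (bars). Every interval includes 0 but those of Atf3 in the left and middle panels, from 0.06 to 2.13 and from -2.25 to -0.18.

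How much the members varied within a group can be set beside other genes. The median coefficient of variation of the 10 members was 30.1% in naive, 62.6% in EAE and 43.4% in treated EAE, whereas the median over all tested genes was 10.2%, 10.5% and 12.3%. In EAE each member varied more than at least 91.6% of the tested genes. In naive cortex Egr2, Egr1 and Fosb were near the middle of all genes, above 52.5%, 59.4% and 62.1% of them, and Npas4 was above 97.0%. The biological coefficient of variation in the edgeR fit ran from 33.4% for Junb to 66.0% for Arc, against a median of 14.2% over all tested genes.

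**Figure D4:**
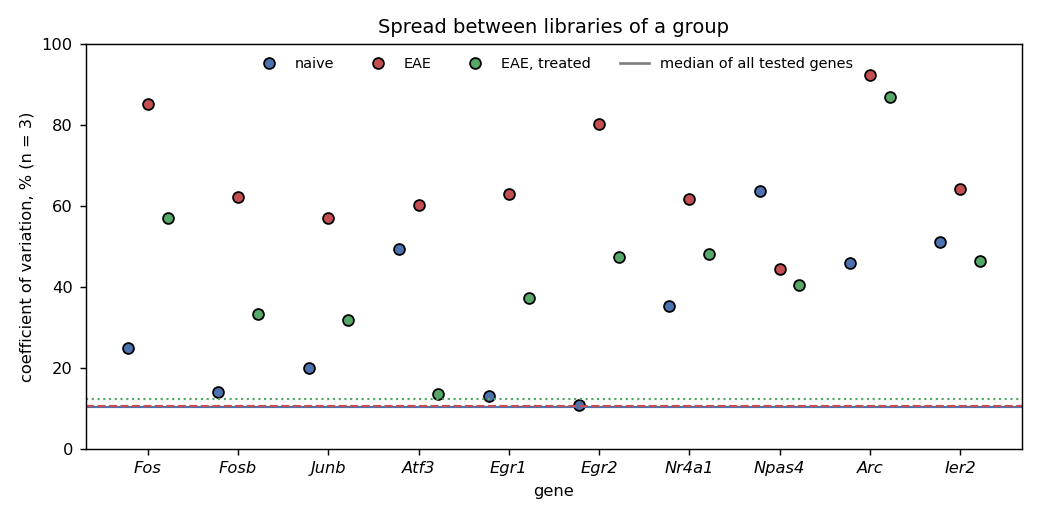
Coefficient of variation between the 3 libraries of a group (vertical axis, percent) for each member. Horizontal lines are the medians over all tested genes, 10.2% to 12.3%. EAE points lie at 44.5% to 92.3%, and Arc is highest.

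A wider list of activity-regulated genes and their regulators, 59 in all with 58 tested, gave no call in any comparison in the edgeR fit with group as its only factor. In EAE against naive 33 were above 0 and 25 below (median 0.03), 6 higher and 4 lower at an unadjusted p under 0.05, a level that 16.4% of all tested genes reached. DESeq2 called 5 of the 59 there, with Errfi1, Ccn2 and Maff higher and Mef2c and Klf10 lower, where it called 5.43% of all genes to which it gave an adjusted p. In treated against untreated EAE 18 were above 0 and 40 below, with a median of -0.119 beside 0.00289 over all tested genes. At an unadjusted p under 0.05 by edgeR 2 were higher and 4 lower, a level that 15.1% of all tested genes reached. DESeq2 called Maff alone there, lower, against 3.91% of all genes. In treated EAE against naive neither tool called any, and 3 were higher at an unadjusted p under 0.05, namely Ier3, Ptgs2 and Ccn2, against 1.71% of all tested genes.

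Maff, a small leucine zipper factor, was at 3.76, 3.36 and 3.06 CPM in EAE, 0.894, 1.43 and 2.10 CPM in naive and 1.17, 1.71 and 1.47 CPM in treated EAE. All EAE libraries lay above the other 6. The log2 fold change was 1.22 (SE 0.30, edgeR adjusted p = 0.0873) against naive and -1.23 (SE 0.30, edgeR adjusted p = 0.13) for treated against untreated EAE. Errfi1, an inhibitor of the EGF receptor, was at 37.3, 32.0 and 36.7 CPM in EAE and at most 29.0 CPM in naive (log2 fold change 0.40, SE 0.09, edgeR adjusted p = 0.0634). Klf10 was at 19.0, 13.1 and 23.1 CPM in EAE against 24.9 to 34.6 CPM in naive (-0.70, SE 0.23, edgeR adjusted p = 0.184), with its highest EAE value in replicate 3, as the members had.

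Of 16 other transcription factors of the immediate early class, 15 were tested. Egr3 and Egr4, further relatives of Egr1, were highest in EAE replicate 3 (196 and 46.9 CPM), with 97.0 to 159 CPM and 20.0 to 37.3 CPM elsewhere. Fosl2 was also highest there, at 67.1 CPM against 27.2 to 41.4 CPM in the other 8 libraries. Jun was not, with its highest value in EAE replicate 1 (68.15 CPM) and 63.1 CPM in EAE replicate 3. Nr4a2 went another way than Nr4a1, being highest in treated replicate 1 at 81.4 CPM, where Nr4a1 was lowest. Nr4a3, the third receptor of that family, was at 22.1, 34.5 and 41.5 CPM in naive, 38.3, 19.7 and 61.4 CPM in EAE and 39.9, 19.7 and 29.5 CPM in treated EAE, highest in EAE replicate 3. None of these had an edgeR adjusted p under 0.05.

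Of 17 feedback regulators, Dusp1, a phosphatase that switches off MAP kinases, was at 61.9 CPM in EAE replicate 3 and lowest in treated replicate 1 at 16.9 CPM. Per1, a clock gene that activity and glucocorticoids both induce, was at 155, 143 and 226 CPM in EAE, above naive replicates 1 and 2 (107 and 125 CPM) though not all above naive replicate 3 (162 CPM). Its log2 fold change was 0.41 (SE 0.21, edgeR adjusted p = 0.378). Of 16 activity-regulated effectors, the synaptic scaffold gene Homer1 was at 154 CPM in EAE replicate 3 and 105 to 160 CPM elsewhere. The growth factor gene Bdnf (14.9 to 29.0 CPM) and the pentraxin gene Nptx2 (31.0 to 55.4 CPM) had their highest values in naive replicate 2. The 10 upstream regulators, among them Srf, Creb1 and Crtc1, summed to between 2198 and 2668 CPM in every library, a range of far less than that of the members.

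Of 15706 genes outside the members whose mean log2 CPM was 0 or more, the profile most like the mean of the members over the 9 libraries was that of Gm34957 (Pearson r 0.959), followed by Dusp6 (0.953) and Igsf9b (0.944). Gm42259, Dnajc21, Mmaa, Map1lc3b, Ybx3, Dusp1 and Ermard made up the first 10, at 0.924 or more. Dusp6 and Dusp1 were the ones on the wider list. Dusp6, which inactivates ERK, was at 62.8, 50.1 and 69.4 CPM in naive, 47.7, 40.9 and 86.4 CPM in EAE and 44.4, 50.7 and 66.5 CPM in treated EAE. With group means taken out Map1lc3b, Arnt2 and Mei1 came first (0.982, 0.979 and 0.978). These genes were picked for the size of r among many, so that no p is given.

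Several library features can be set beside this order. The 10 members summed to 1264 CPM in EAE replicate 3, 1059 in treated replicate 3 and 905 in naive replicate 3, to 356, 363 and 460 CPM in treated replicate 1 and EAE replicates 2 and 1, and to between 573 and 684 CPM in the other 3, sums that Egr1 and Arc dominate. Striatal markers were lowest in naive and EAE replicate 3 (218 and 236 CPM) and next lowest in treated replicates 3 and 1 (342 and 354 CPM), so that libraries with little striatal RNA included both the highest and the lowest members. C1ql2, a marker of the dentate gyrus of the hippocampus, was at 11.6 and 10.5 CPM in EAE replicates 3 and 1, at 7.79 CPM in naive replicate 3, at 7.57 CPM in treated replicate 1 and at 0.626 to 2.13 CPM in the other 5 libraries, and so was high in libraries at either end of the order of the members. C1ql2 was 1 of 6 hippocampal markers, which did not all share its order. Nptxr was highest in treated replicate 1 (1683 CPM) and lowest in EAE replicate 3 (804 CPM). Dsp was at 8.28 and 6.57 CPM in EAE replicates 1 and 3, and at 1.37 CPM in treated replicate 1. The part of the striatal and hippocampal markers in the differences between libraries was not tested.

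Genes induced by glucocorticoid hormones, which rise with stress, were measured beside them. The 10 on a short list, among them Ddit4, Sgk1 and Fkbp5, summed to 758, 793 and 823 CPM in the EAE replicates against 370 to 412 CPM in naive and 405 to 527 CPM in treated mice. The EAE values were close together and did not overlap the rest. Of the 10, 5 were higher in EAE than in naive by the edgeR test and 3 lower in treated than in untreated EAE, where 0 of the 10 immediate early genes passed. That list was chosen with earlier results of these data known, and the difference between the lists was not tested.

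**Figure D5:**
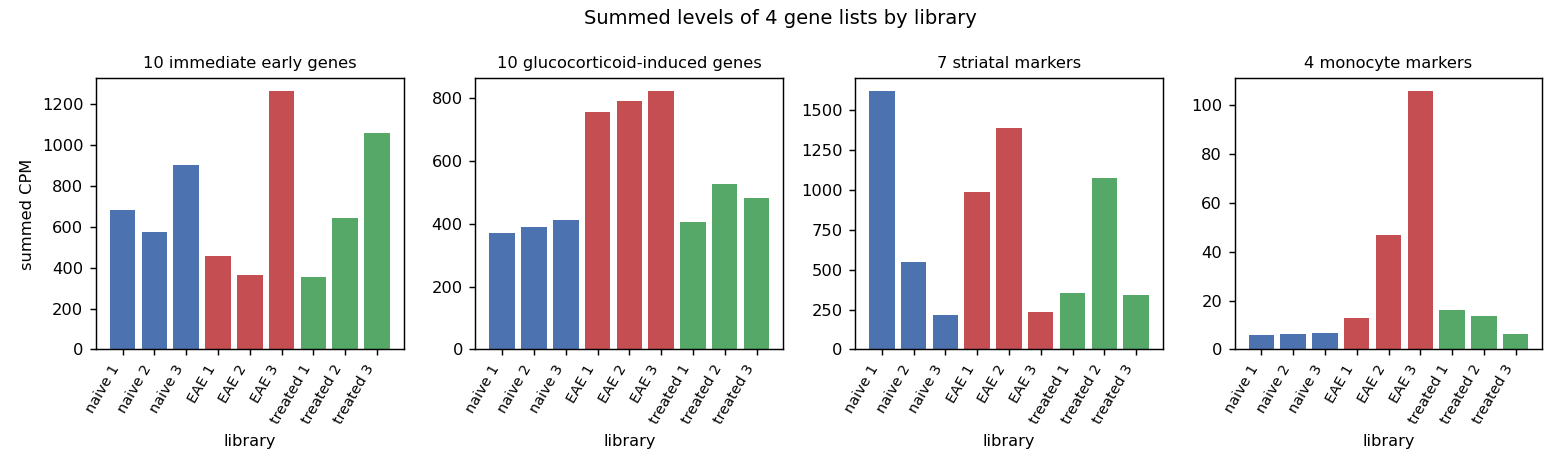
Summed CPM by library for the 10 members, 10 glucocorticoid-induced genes, 7 striatal markers and 4 monocyte markers. Glucocorticoid genes are high in all 3 EAE libraries (758 to 823 CPM), whereas the members are high in EAE 3 (1264 CPM) and low in EAE 1 and 2 (460 and 363 CPM).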

How the data were processed

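RNA of 9 cortex samples was sequenced as poly(A) libraries, per the labels' protocols. Per the design text of the series, FastQC and fastp served for quality control and trimming, Hisat2 for alignment and bowtie2 for quantification. FastQC was version 0.11.8 and the build mm10, per the submitters' processing notes. Annotation, strand setting and counting program are not given in the sources used. The authors deposited raw counts per gene symbol, matched to samples by title, and 9 further columns were not used. The ratio of genes with 2 counts to genes with 1 count was 3.80 to 4.43, as mates counted separately would give, so that counting error may exceed what the counts imply.

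The quasi-likelihood fit of edgeR 4.0.16 (R 4.3.3; TMM scaling, low counts removed by filterByExpr, robust set) took in all 9 libraries with group as its factor, with Benjamini-Hochberg adjustment over the 18644 genes tested and a threshold of 0.05. CPM use TMM factors (0.98 to 1.02). Levels per kilobase use the exon union of GENCODE M21. Alternatives were other scalings and filters, DESeq2 1.42.0, 2 groups at a time, a replicate block, each library left out, and, added after the data were seen, striatal or hippocampal markers as a covariate. Counts of 18401 genes were simulated for EAE against naive. The fit recovered 55.0% of genes changed by 1 and 88.8% of those changed by 2 on the log2 scale, with 9 false calls. The members varied more than most genes (biological coefficient of variation 33.4% to 66.0%, against a median of 14.2% over all tested genes). Recovery at that spread was not tested.

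No label ties replicate numbers across groups. After group means were taken out, EAE and treated libraries of the same number correlated at 0.175, 0.245 and 0.238 over all tested genes. That meets the rule set for pairing (each above 0.1). With naive libraries the values ran from -0.246 to 0.36. As no label ties the numbers, the fit reported stayed unpaired and the replicate block was an alternative. With the block, treated against untreated EAE had 4 members above 0 and 6 below. Their median was -0.078 and the smallest edgeR adjusted p 0.165. EAE against naive moved more with the block, to 2 members above 0 and 8 below. The median there was -0.314, from -0.096 without the block, and the smallest edgeR adjusted p 0.149. Treated EAE against naive had 2 above and 8 below, with a median of -0.175. The members and lists were chosen with earlier results of these data known. All 10 members are named. Of the wider list, called genes and Fosl2, Jun, Egr3, Egr4, Nr4a2, Nr4a3, Dusp1, Per1, Homer1, Bdnf and Nptx2 were to be named. Maff, Errfi1, Ccn2, Klf10, Mef2c, Klf2, Ier3, Ptgs2, Dusp6, Slc17a7, Tbr1, C1ql2, Nptxr, Dsp and Ms4a6c were named after their values were seen. Dusp6 was also named as 1 of the 10 genes most like the members. A further marker gene is not reported here.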

Additional observations from a re-analysis of the deposited data

How the results depend on the processing

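The count of members called was 0 in all 3 comparisons under every alternative run, with a range of 0 to 0 when each library was left out in turn. The count of the wider list was 0 in the fit as reported. With the replicate block it was 2 in EAE against naive (Klf2 higher and Klf10 lower), and with DESeq2 it was 5 in EAE against naive and 1 in treated against untreated EAE. Leaving out single libraries gave 0. The block changed no other count. Scalings, filters and the fit of 2 groups changed the sign of no member.

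The sign of uncalled members changed as follows, and the cause was not tested. With the replicate block the log2 fold change in EAE against naive became -0.097 for Junb and -0.011 for Arc, that of Fos in treated against untreated EAE 0.085, and that of Arc in treated EAE against naive -0.2. With the striatal covariate it was -0.06 for Junb in EAE against naive, 0.103 for Fos in treated against untreated EAE and -0.021 for Arc in treated EAE against naive. With the hippocampal covariate it was -0.059 for Junb, 0.158 for Egr2 and 0.023 for Npas4 in EAE against naive, 0.066 for Nr4a1 and -0.19 for Npas4 in treated against untreated EAE, and 0.011 for Atf3, -0.167 for Npas4 and 0.014 for Ier2 in treated EAE against naive.

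The next ranges are log2 fold changes with single libraries left out, in EAE against naive, treated against untreated EAE and treated EAE against naive in that order. Fos ran from -1.312 to -0.022, from -0.49 to 0.924 and from -0.834 to -0.015. Fosb ran from -0.275 to 0.623, from -0.451 to 0.448 and from -0.04 to 0.413. Junb ran from -0.562 to 0.255, from -0.423 to 0.395 and from -0.35 to 0.069. Atf3 ran from 0.504 to 1.557, from -1.524 to -0.628 and from -0.348 to 0.336. Egr1 ran from -0.805 to 0.12, from -0.16 to 0.781 and from -0.324 to 0.213. Egr2 ran from -0.908 to 0.334, from -0.721 to 0.523 and from -0.747 to -0.071. Nr4a1 ran from -0.831 to 0.126, from -0.552 to 0.495 and from -0.756 to -0.007. Npas4 ran from -1.094 to -0.006, from 0.489 to 1.126 and from -0.217 to 0.695. Arc ran from -0.798 to 0.732, from -1.167 to 0.862 and from -0.88 to 0.508. Ier2 ran from -0.947 to 0.204, from -0.288 to 0.74 and from -0.587 to 0.295.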
